A study of Mus musculus with 10 samples.

Results

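The values below concern 10 genes of the actin contractile apparatus and its tropomyosins in mouse embryonic stem (ES) cells. They are Acta2, Tagln, Tpm1, Tpm2, Tpm4, Myl9, Cnn1, Cnn2, Actn1 and Vcl. Their symbols were matched to Ensembl IDs in both expression tables, which found 10 of 10 among 22713 gene IDs. The rule that lists them uses no measured value, but the 10 genes were chosen with earlier results of these data known. Counts of them beside all genes are therefore not those of a blind choice.

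Actin filaments generate force when myosin slides along them, and tropomyosins lie along the filament and set which proteins can bind it. Smooth muscle cells and activated fibroblasts carry a contractile set of this machinery, with smooth muscle actin, transgelin, calponin and a regulatory myosin light chain. Much of that set is transcribed by serum response factor (SRF) at a DNA element called the CArG box, with myocardin-family cofactors such as Mkl1 that respond to the pool of free actin. ES cells rest mainly on the cytoplasmic actins, on non-muscle myosin and on adhesion proteins such as alpha-actinin and vinculin.

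The study asked how Pontin, an ATPase encoded by Ruvbl1, acts together with Oct4 and a long intergenic noncoding RNA, linc1253, in ES cells. Poly(A) mRNA was sequenced in 8 libraries, and chromatin immunoprecipitation (ChIP) in 2. Pontinf/f; CreER ES cells carry floxed Pontin alleles and a Cre that 4-hydroxy tamoxifen (OHT) activates. They gave 1 library before OHT (WT), 1 after 3 days (OHT 3D) and 1 after 4 days (OHT 4D). ZHBTc4 ES cells, in which tetracycline (Tc) shuts off Oct4, gave 1 library after 2 days of Tc (Tc 2D). ZHBTc4 cells at 4 days after infection gave 2 libraries with pLKO control lentivirus (control shRNA) and 2 with a lentivirus carrying an shRNA against linc1253 (linc1253 shRNA). The ChIP libraries used ZHBTc4 cells with an antibody against Pontin or against GFP. No library of OHT-treated cells without floxed alleles was used here, and WT at Tc 2D is a control from another cell line. The methods describe ES cells grown either on embryonic fibroblast feeders or without them, and do not state which applied to the sequenced cultures.

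Values are CPM, reads on a gene relative to the scaled library total, and the reads behind them ranged from 17187595 to 37951742 per library. Ruvbl1 had 198 CPM in WT and 33.3 (day 3) and 50.9 (day 4) after OHT. At Tc 2D, where Pontin was not targeted, it was also below WT, at 85.0 CPM. WT comes from another cell line. Control shRNA libraries, of the same line as Tc 2D but infected and not rescaled to it, had 166 and 186 CPM of Ruvbl1. By contrast, the paper reports that Oct4 depletion did not significantly change Pontin mRNA or protein. Why Ruvbl1 was lower in this library was not tested. Pou5f1, which encodes Oct4, was at 302 CPM in WT and 21.1 at Tc 2D. The 10 ES cell markers summed to 3004 to 5586 CPM in the other 7 libraries and to 472 at Tc 2D. The 8 smooth muscle markers summed to between 44.8 CPM (OHT 3D) and 84.7 CPM (control shRNA replicate 1), most of it from Smtn and Des, and the 8 cardiac and skeletal muscle markers to between 7.15 CPM (WT) and 18.2 CPM (Tc 2D). Myocd, which encodes myocardin, did not exceed 0.881 CPM in any library. In bulk RNA, fewer cells of a type and less RNA per cell cannot be told apart.

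The sequences upstream of 4 genes are shown because these stretches hold the motifs searched for and because 3 of the genes changed after OHT. RefSeq promoters were found for 9 of the 10 genes, and Tagln had no entry. Each stretch is the part of the 250 bases before the RefSeq start that lies outside annotated exons, in GRCm38.p6 and 5′ to 3′ on the gene's own strand. Acta2 lies at chr19:34255374-34255623 (minus strand), Myl9 at chr2:156775214-156775419, Cnn2 at chr10:79988350-79988583 and Vcl at chr14:20929148-20929397 (plus strand for these). Capitals mark the strict CArG box in Myl9, Cnn2 and Vcl, and GGAATG, the core of the element bound by TEAD factors, in Acta2 and Vcl.
Acta2: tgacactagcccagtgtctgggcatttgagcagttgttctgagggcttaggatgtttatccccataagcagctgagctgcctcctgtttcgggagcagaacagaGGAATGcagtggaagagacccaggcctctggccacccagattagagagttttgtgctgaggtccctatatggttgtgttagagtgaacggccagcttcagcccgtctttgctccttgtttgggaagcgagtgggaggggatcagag
Myl9: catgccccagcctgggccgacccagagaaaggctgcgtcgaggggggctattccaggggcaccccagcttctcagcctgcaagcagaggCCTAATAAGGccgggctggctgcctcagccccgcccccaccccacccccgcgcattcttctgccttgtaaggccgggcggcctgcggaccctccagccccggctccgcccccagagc
Cnn2: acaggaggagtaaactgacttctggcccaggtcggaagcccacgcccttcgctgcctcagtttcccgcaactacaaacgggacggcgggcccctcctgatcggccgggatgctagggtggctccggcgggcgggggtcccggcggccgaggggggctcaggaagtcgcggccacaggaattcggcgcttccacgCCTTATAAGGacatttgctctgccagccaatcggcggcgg
Vcl: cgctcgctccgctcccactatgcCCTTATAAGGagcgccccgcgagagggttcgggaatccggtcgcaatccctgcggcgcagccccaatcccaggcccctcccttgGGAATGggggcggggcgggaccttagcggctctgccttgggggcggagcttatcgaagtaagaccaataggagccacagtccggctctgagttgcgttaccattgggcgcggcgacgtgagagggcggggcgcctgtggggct
The CArG box was first searched in its strict form, a pair of C, 6 bases that are each A or T, and a pair of G, which reads the same way on both strands. This form was found in 3 of 9 promoters of 300 bases. It lay at positions -161 to -152 from the RefSeq start in Myl9, -56 to -47 in Cnn2 and -227 to -218 in Vcl. Of all 32851 RefSeq promoters of this length, 1.63% held it. With 1 of the 6 middle bases allowed to be C or G, a rule added after the data were seen, Acta2 held ccctatatgg at -84 to -75 and ccttgtttgg at -34 to -25, and Myl9 held ccttgtaagg at -99 to -90, all in lower case in the stretches above. Either form was then present in 4 of 9 promoters, against 9.98% of all promoters. GGAATG on either strand was found in 3 of 9, starting at -146 in Acta2, -56 in Tpm1 and -143 in Vcl, against 14.7% of all promoters. The match in Tpm1 lies in annotated exon, which covers 193 of the 250 bases before its RefSeq start. The motifs do not overlap in Vcl, where both occur. These matches describe letters in a window and do not show that a factor was bound.

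Acta2 (ENSMUSG00000035783, NCBIM37 chromosome 19, 34315580 to 34329826) encodes the alpha actin of smooth muscle, and it had the widest range of the 10 genes on a fold scale. WT had 5.90 CPM, the OHT libraries 94.6 (day 3) and 112 (day 4), and Tc 2D 0. The control shRNA libraries had 0.277 and 3.31 CPM, and the linc1253 shRNA libraries 0.180 and 17.7. The gene was therefore high at both times after OHT, absent from the reads at Tc 2D and unequal between replicates of the same group. Reads rose from 132 in WT to 2090 at OHT 3D, a 16-fold higher CPM (95% counting interval 13.4 to 19.3). At OHT 4D the CPM was 19-fold higher than in WT (15.9 to 22.8). These intervals, here and below, are exact binomial ones that cover counting error only, since there was 1 library per condition and reads are not independent molecules. The 0 reads at Tc 2D were taken to allow up to 0.106 CPM, which puts Acta2 at least 55.8-fold below WT. This bound takes the WT value as exact and is not an interval of the kind above.

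**Figure D1:**
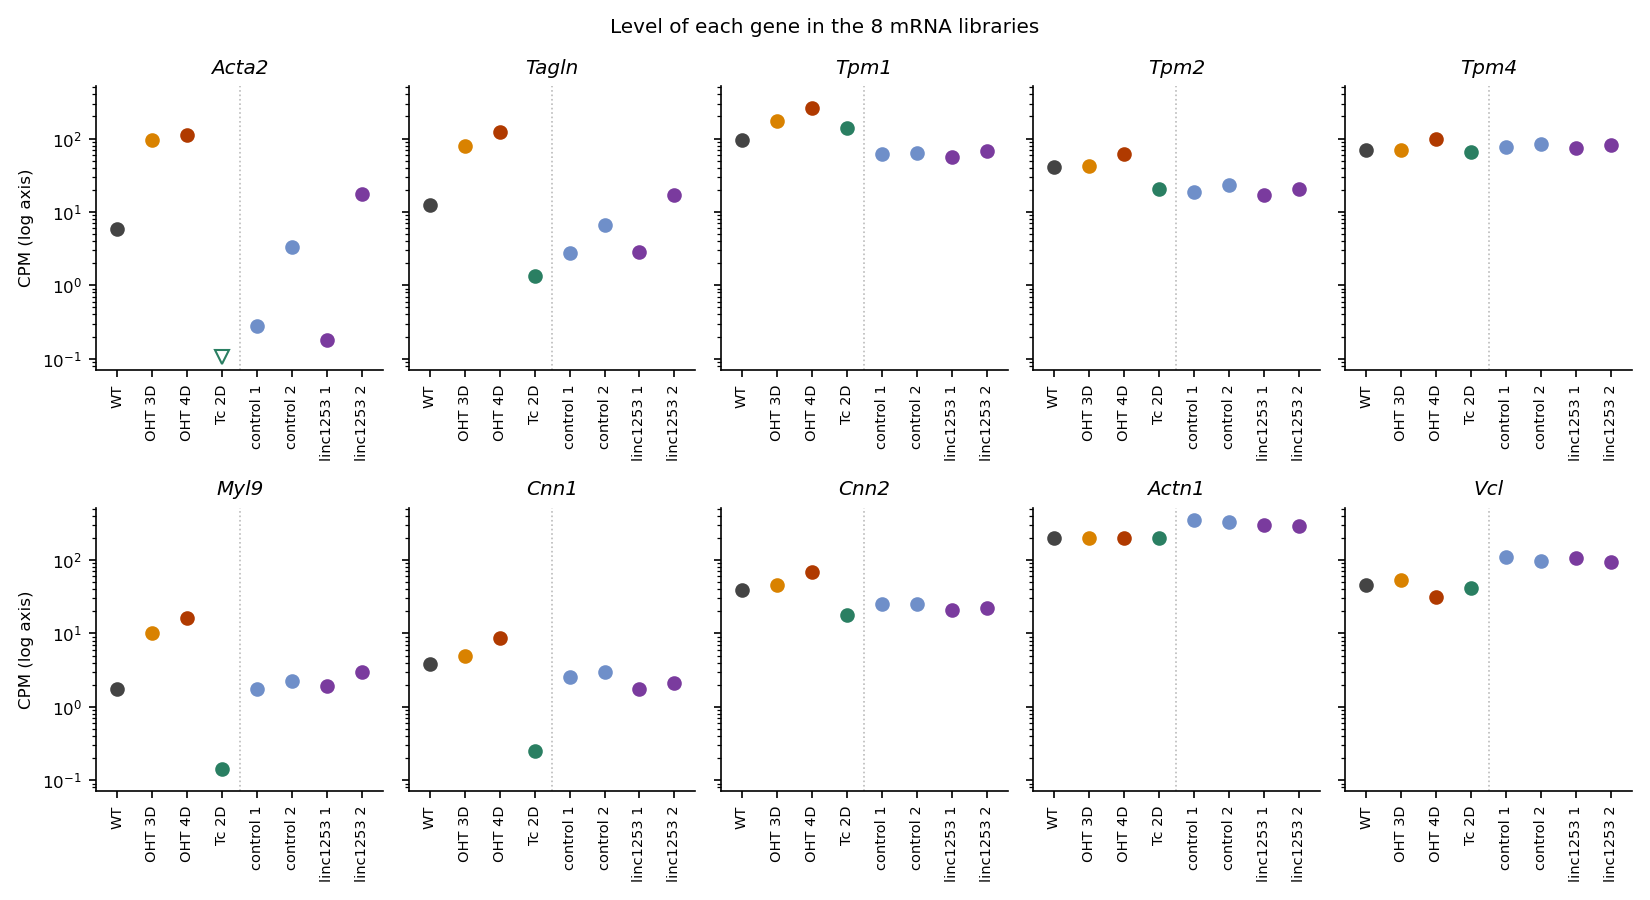
CPM (log axis) of each of the 10 genes in the 8 mRNA libraries, 1 point per library, with a dotted line between the 2 tables they come from. The open triangle is the 0.106 CPM that 0 reads of Acta2 allow at Tc 2D. Acta2, Tagln and Myl9 were highest at OHT 3D and OHT 4D, and Actn1 stayed between 200 and 202 CPM in the 4 libraries on the left.

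Tropomyosins are coiled-coil proteins that run along the actin filament. Tpm1 (ENSMUSG00000032366, chromosome 9, 66870397 to 66897213) had 94.8 CPM in WT, 175 (day 3) and 262 (day 4) after OHT, and 138 after Tc. In the shRNA libraries it was at 61.9 and 64.6 CPM (control) and at 56.1 and 67.9 (linc1253). Tpm1 was highest at OHT 4D, and the shRNA groups overlapped. Its CPM was 1.84-fold higher at OHT 3D (1.75 to 1.94) and 2.77-fold higher at OHT 4D (2.63 to 2.91). In the paper, Tpm1 is named among genes higher without Pontin, both by mRNA sequencing and by quantitative RT-PCR.

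Tpm2 (ENSMUSG00000028464, chromosome 4, 43527583 to 43536637) had 41.6 CPM in WT, 42.4 (day 3) and 61.9 (day 4) after OHT, 20.8 after Tc, and 18.5, 23.3, 16.9 and 20.6 in the control 1, control 2, linc1253 1 and linc1253 2 libraries. Tpm4 (ENSMUSG00000031799, chromosome 8, 74658874 to 74677041), a tropomyosin of non-muscle cells, was at 70.3, 69.4, 99.8 and 65.1 CPM in WT, OHT 3D, OHT 4D and Tc 2D. Its shRNA libraries ran from 75.1 to 83.7 CPM. Both genes were level with WT at OHT 3D and above it at OHT 4D, with ratios to WT of 1.49 (1.37 to 1.62) for Tpm2 and 1.42 (1.33 to 1.52) for Tpm4. The tables hold 1 value per gene, so the muscle and non-muscle isoforms of each tropomyosin gene were not separated.

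Transgelin and the calponins share a calponin homology domain and bind along actin filaments. Tagln (ENSMUSG00000032085, chromosome 9, 45737711 to 45744141) had 12.4 CPM in WT, 78.2 (day 3) and 124 (day 4) after OHT, and 1.34 after Tc. It was at 2.77 and 6.67 CPM in the control shRNA libraries and at 2.83 and 17.1 in the linc1253 shRNA libraries. Like Acta2, it was high after OHT, low at Tc 2D and higher in replicate 2 than in replicate 1 of each shRNA group. Its ratio to WT was 6.29 at OHT 3D (5.54 to 7.17) and 9.99 at OHT 4D (8.83 to 11.3).

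Cnn1 (ENSMUSG00000001349, chromosome 9, 21903725 to 21914074), the calponin of smooth muscle, had 3.84 CPM in WT, 4.98 (day 3) and 8.72 (day 4) after OHT, and 0.247 after Tc. The control shRNA libraries had 2.58 and 2.97 CPM, and the linc1253 shRNA libraries 1.75 and 2.10. Its ratio to WT was 1.29 at OHT 3D with an interval that spans 1 (0.967 to 1.74), and 2.27 at OHT 4D (1.75 to 2.96). Only 7 reads were counted at Tc 2D, for a CPM 15.6-fold lower than in WT (7.25 to 39.9). Cnn2 (ENSMUSG00000004665, chromosome 10, 79451329 to 79458807), a calponin of many cell types, had 39.3 CPM in WT, 45.1 (day 3) and 68.2 (day 4) after OHT, and 17.7 after Tc, with 20.72 to 24.99 in the shRNA libraries. Both calponins were higher at OHT 4D than at OHT 3D, and lowest at Tc 2D among these 4 libraries.

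Myl9 (ENSMUSG00000067818, chromosome 2, 156601156 to 156607394) encodes a regulatory light chain of smooth muscle and non-muscle myosin. WT had 1.74 CPM, the OHT libraries 10.2 (day 3) and 16.5 (day 4), and Tc 2D 0.141. The control shRNA libraries had 1.75 and 2.28 CPM, and the linc1253 shRNA libraries 1.91 and 3.03. The ratio to WT was 5.84 at OHT 3D (4.14 to 8.43) and 9.45 at OHT 4D (6.78 to 13.5). Myl9 rested on few reads, 39 in WT and 4 at Tc 2D, so its intervals were wide.

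Actn1 and Vcl did not follow the others. Actn1 (ENSMUSG00000015143, chromosome 12, 81268529 to 81361358) encodes alpha-actinin 1, which cross-links actin filaments. WT had 200.4 CPM, the OHT libraries 201.4 (day 3) and 201.7 (day 4), and Tc 2D 201.5, and each interval of the ratio to WT lay between 0.964 and 1.05. Vcl (ENSMUSG00000021823, chromosome 14, 21748655 to 21852895) encodes vinculin, which ties filaments to integrin and cadherin adhesions. WT had 46.3 CPM, the OHT libraries 53.3 (day 3) and 31.8 (day 4), and Tc 2D 41.3, while the shRNA libraries ran from 94.3 to 110 CPM. Its ratio to WT was above 1 at OHT 3D (1.15, 1.06 to 1.25) and below 1 at OHT 4D (0.688, 0.625 to 0.758). Of the exon bases of Vcl, 39.9% overlap Ap3m1 on the opposite strand, and whether the counting used strand is not given in the sources used here. For Ap3m1 itself the log2-fold-change was 0.07 on day 3 and -0.18 on day 4.

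Levels can be set against each other between genes only per length of exon. In WT, Actn1 stood first with 52.7 CPM per kb, followed by Tpm4 with 31.9, Cnn2 with 16.0, Tpm1 with 14.6 and Tpm2 with 14.3. Vcl (8.85), Tagln (7.84), Acta2 (3.31), Cnn1 (1.62) and Myl9 (1.5 CPM per kb) were the lowest. At OHT 4D the order was headed by Tagln with 78.3 CPM per kb and Acta2 with 62.8, ahead of Actn1 with 53.0. With 1 library each, neighbours such as Tpm1 and Tpm2 in WT have no replicate spread against which to set their difference.

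The change after Pontin depletion was next taken on the study's scale, the log2-fold-change of CPM plus 1, with a limit of 0.58 in either direction. All 10 genes passed the filter of more than 1 CPM in at least 1 of the 4 libraries. At OHT 3D, 4 of the 10 genes were above the limit and 0 below, whereas 6.01% of 13449 genes were above it and 5.88% below. The 4 were Acta2 (log2-fold-change 3.79), Tagln (2.56), Myl9 (2.03) and Tpm1 (0.87). At OHT 4D, 6 were above and 0 below, beside 6.48% and 8.89% of all genes. Cnn1 (1.00) and Cnn2 (0.78) had joined Acta2 (4.03), Tagln (3.22), Myl9 (2.67) and Tpm1 (1.46). Tpm2 (0.56) and Tpm4 (0.50) lay just inside the limit, Vcl was at -0.53 and Actn1 at 0.01. The median of the 10 genes was 0.25 at OHT 3D and 0.89 at OHT 4D, while that of all genes was -0.02 and 0.00.

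**Figure D2:**
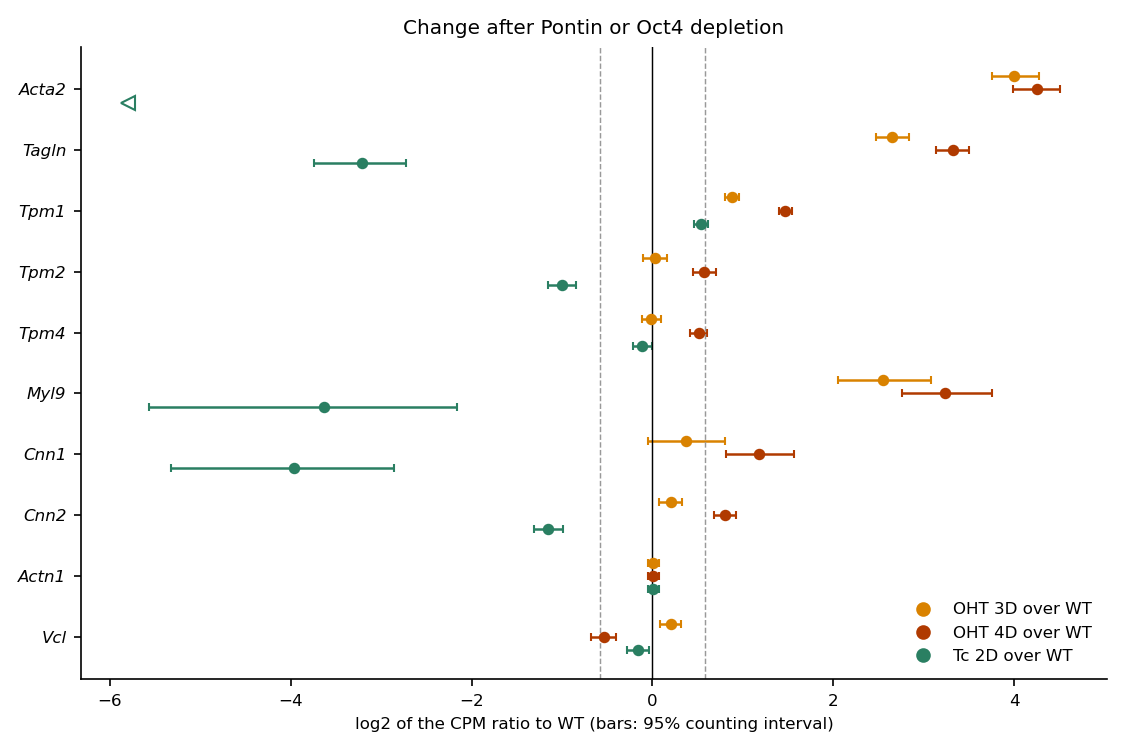
Log2 of the CPM ratio to WT for the 10 genes at OHT 3D, OHT 4D and Tc 2D, without a pseudocount, with 95% counting intervals as bars and dashed lines at 0.58 either side of 0. The open triangle marks a fold of at least 55.8 below WT for Acta2, which had 0 reads at Tc 2D, with the WT value taken as exact. Acta2, Tagln and Myl9 lie right of the dashed line after OHT and left of it at Tc 2D, and Actn1 lies at 0.01 in each comparison.

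Between OHT 3D and OHT 4D, 5 genes were higher past the limit and 1 lower, beside 5.47% and 8.84% of all genes. The 5 were Cnn1 (0.70), Tagln (0.66), Myl9 (0.64), Cnn2 (0.59) and Tpm1 (0.58), and the lower gene was Vcl (-0.72). Tpm2 (0.53) and Tpm4 (0.52) were just inside it. Acta2 differed by 0.24, so it had nearly its whole difference from WT by day 3. This count rested on the settings more than the others did: with a pseudocount of 3 it was 1, with median-ratio rescaling 3, and past a limit of 1 it was 0.

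Markers of fibroblasts were higher in the same libraries. Of 16 fibroblast markers, 13 passed the filter on low values, but 5 of these (Col3a1, Pdgfrb, Postn, Twist2 and Prrx1) were at or below 1 CPM in WT and passed only through other libraries. The 8 above 1 CPM in WT were all above the limit at both times after OHT, beside 6.01% of all genes on day 3 and 6.48% on day 4. All 16 summed to 60.0 CPM in WT and to 265 (day 3) and 333 (day 4) after OHT. Col1a1, a chain of type I collagen, went from 4.2 CPM in WT to 46.5 and 64.6, and Postn, a matrix protein, from 0.492 to 7.33 and 8.63. Lum and Fap had 0 reads in WT and at OHT 3D and were at 0.0876 CPM at OHT 4D, and Dcn reached 0.832 CPM. The part of fibroblasts in the rise of Acta2, Tagln and Myl9 was not tested.

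Markers of primitive endoderm, the lineage that forms the yolk sac lining, were higher as well. Of 10 markers 9 passed the filter, and Gata6 and Sox17 were at or below 1 CPM in WT. Of the 7 above 1 CPM in WT, 3 were above the limit on day 3 and 5 on day 4, with 0 below. Of all genes, 6.01% were above and 5.88% below on day 3, and 6.48% and 8.89% on day 4. Col4a1, a chain of basement membrane collagen, went from 33.3 CPM in WT to 95.6 and 129, and the 10 markers summed to 243 CPM in WT and to 327 and 369 after OHT. At Tc 2D, where Acta2 and Tagln were low, the sum was 554 CPM, and 5 of these 7 were above the limit and 0 below, beside 23.9% and 25.8% of all genes. Pdgfra belongs to both this list and that of fibroblasts, and the part of such cells in the change of the contractile genes was not tested.

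**Figure D3:**
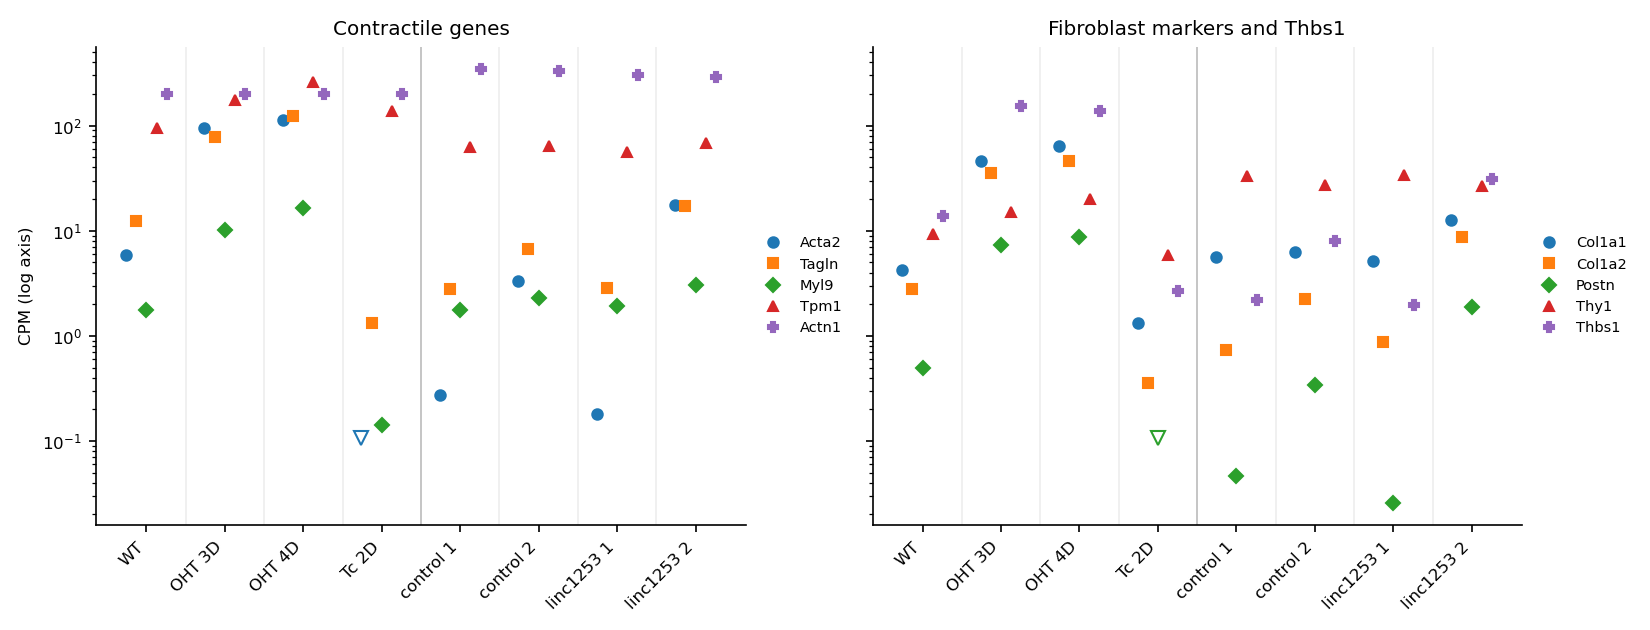
CPM (log axis) of 5 contractile genes (left) and of 4 fibroblast markers and Thbs1 (right) in each of the 8 libraries, 1 symbol per gene. Open triangles are the 0.106 CPM that 0 reads allow at Tc 2D. Col1a1, Col1a2, Postn and Thbs1 were high at OHT 3D and OHT 4D, low at Tc 2D and, in each shRNA group, higher in replicate 2, as were Acta2 and Tagln. The fibroblast markers drawn were chosen after their values were seen, and others differed. Vim, Pdgfrb and Fbn1, not drawn, were higher at Tc 2D than in WT, which is of another line. They were lower in replicate 2 of each shRNA group. Beside the control shRNA libraries, of the same line as Tc 2D, Pdgfrb was higher at Tc 2D but Vim and Fbn1 were lower.

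The rest of the contractile machinery showed a mixed picture after OHT. Beside the counts after OHT of this list and the next ones stand the shares of all genes. These were 6.01% above the limit and 5.88% below on day 3, and 6.48% and 8.89% on day 4. Among 5 other actins, Actb and Actg1, the cytoplasmic forms, were close to WT, with 0.15 and -0.06 on day 3 and 0.39 and 0.24 on day 4. The muscle actins Acta1 (1.32 and 2.07) and Actg2 (1.21 and 1.88), named after their values were seen, reached at most 6.0 and 2.67 CPM. Both were at or below 1 CPM in WT and passed the filter only through the OHT libraries. Of the 2 actins above 1 CPM in WT, 0 passed the limit. The coding sequence of Acta2 is 85.4% identical to that of Acta1 and 84.4% to that of Actg2, and 0.404% of its 50-base windows occur in another gene.

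Of 7 myosin motor genes tested, 0 were above the limit and 1 below at OHT 3D, and 0 and 2 a day later. Myh14, a non-muscle myosin heavy chain, was lower at both times (-0.90 and -0.74), and Ppp1r12a, a subunit of myosin phosphatase, was at 0.13 and -0.80. Myh9, the most abundant heavy chain of the list, was at -0.01 and 0.01. Myl9 was thus above the limit while no heavy chain of this list was.

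Of 8 other filament side-binding genes, 1 was above the limit and 2 below at OHT 3D, and 2 and 1 a day later. Cald1, which encodes caldesmon, was at 1.38 and 1.15, and Csrp1, a LIM protein, at 0.28 and 0.76. Lima1, which bundles filaments, was lower at both times (-1.05 and -1.08). Tagln3 was at -0.69 and 0.06, and is named after its values were seen. Tpm3, the tropomyosin gene outside the 10, was at 0.18 and 0.12, and Tagln2 and Cnn3, relatives of Tagln and the calponins, lay between -0.27 and 0.28.

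Of 11 cross-linking and adhesion genes tested, 2 were above the limit and 0 below at each time. Zyx, which encodes the adhesion protein zyxin, was at 0.88 and 1.60. Lpp, a relative of zyxin, was at 0.74 and 0.26, and Flnc, a filamin, at 0.55 and 0.93. Itga5, an integrin subunit, was at 0.54 and 0.49. Actn4, the relative of Actn1, was at 0.34 and 0.09.

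The mRNAs of Srf itself (-0.15 and 0.18) and of its cofactor Mkl1 (0.06 and -0.11) did not pass the limit. Of 8 targets of SRF and YAP, Ankrd1 and Tgfb1i1 were at or below 1 CPM in WT and passed the filter only through other libraries. Of the other 6, 4 were above the limit and 0 below on day 3, and 3 and 1 on day 4. Thbs1, a matrix glycoprotein, was at 13.7 CPM in WT and at 154 and 136 after OHT, with log2-fold-changes of 3.40 and 3.22. Ctgf (1.45 and 1.80) and Cyr61 (1.43 and 1.85) encode secreted matricellular proteins. Egr1, an immediate early gene, was at 0.10 and -0.62. Of 6 smooth muscle markers tested, 3 were above the limit and 1 below at each time. Those above were Lmod1 and, both at or below 1 CPM in WT, Actg2 and Myh11, those below Smtn on day 3 (-0.60) and Synpo2 on day 4 (-0.64), all named after their values were seen. Actg2 and Myh11 passed the filter only through libraries other than WT. Of the 4 smooth muscle markers above 1 CPM in WT, 1 was above the limit and 1 below at each time. Myh11, the heavy chain of smooth muscle myosin, did not exceed 1.63 CPM after OHT.

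**Figure D4:**
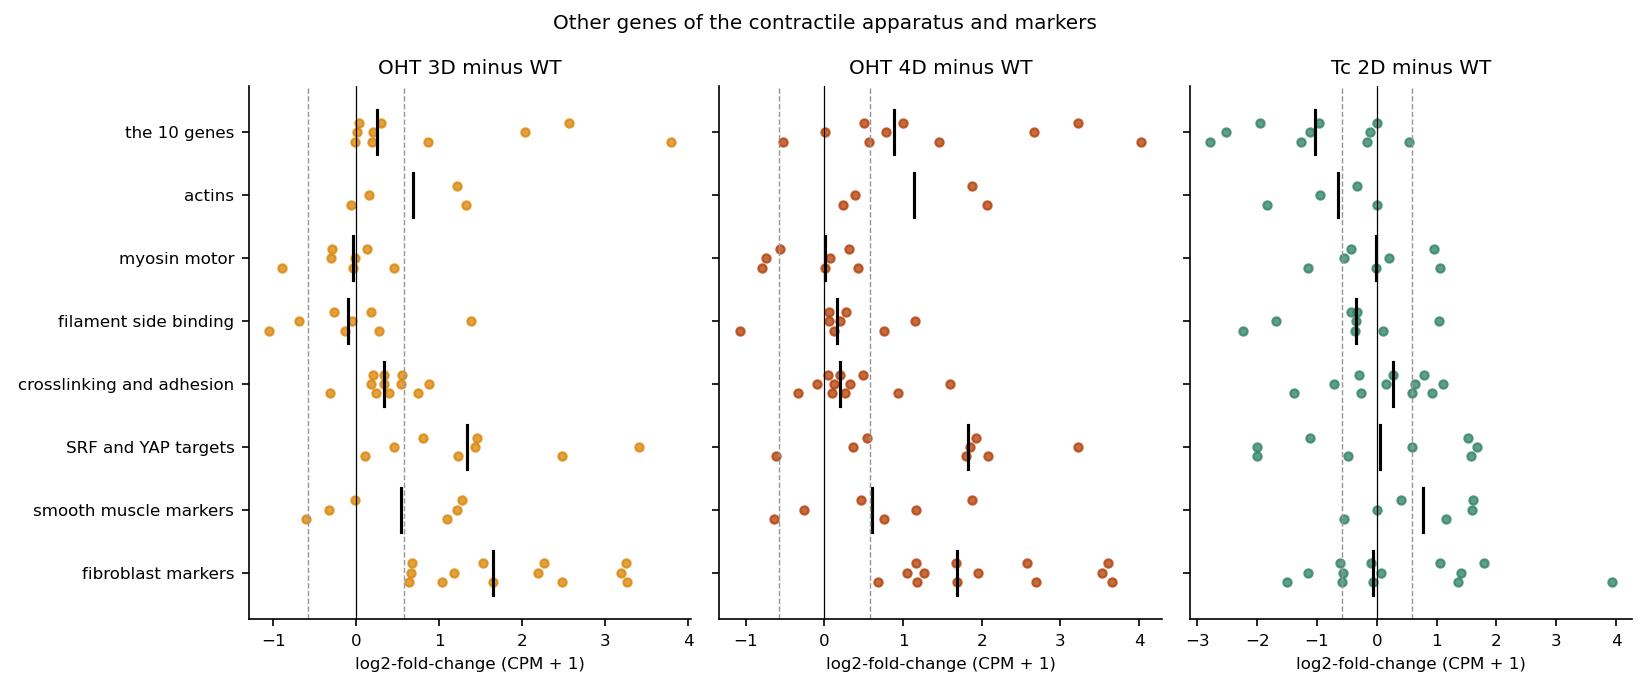
Log2-fold-change (CPM plus 1) against WT of each gene that passed the filter, by gene list, at OHT 3D, OHT 4D and Tc 2D. Points are genes, black bars are list medians and dashed lines are the limit of 0.58. After OHT the fibroblast markers lie right of the limit, 5 of them genes that passed the filter only through libraries other than WT, as did 2 of the SRF and YAP targets, while the myosin motor genes (medians -0.04 and 0.01) centre on 0.

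At Tc 2D, 0 of the 10 genes were above the limit and 6 below, in a comparison where 23.9% of all genes were above and 25.8% below. Acta2 (log2-fold-change -2.79), Tagln (-2.52), Cnn1 (-1.96), Myl9 (-1.27), Cnn2 (-1.11) and Tpm2 (-0.97) were lower. Tpm1 was at 0.53, Actn1 at 0.01, Tpm4 at -0.11 and Vcl at -0.16. The cytoplasmic actins were lower too, with Actb at 257 CPM against 914 in WT (-1.83) and Actg1 at 191 against 369 (-0.95). Myh9 went the other way, at 1032 against 535 CPM (0.95). Other parts of the machinery were mixed. Of 11 cross-linking and adhesion genes, 5 were above the limit and 2 below, among them Lpp (1.11), Zyx (0.92), Flnc (0.78) and the filamin Flna (-1.38). Of 8 filament side-binding genes 1 was above, Cald1 (1.04), and 2 were below, among them Lima1 (-1.69). Of the 4 smooth muscle markers above 1 CPM in WT, 2 were above the limit and 0 below. These were Des, the muscle intermediate filament protein desmin (1.59), and Lmod1 (1.15), so they did not move with Acta2 and Tagln. WT is the common control of the OHT and the Tc comparisons and belongs to the Pontinf/f; CreER line, so Oct4 loss and cell line cannot be told apart here.

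The control shRNA libraries come from the same ZHBTc4 line, though after lentiviral infection. Per the paper they were also run on another sequencer model than Tc 2D. They were set beside Tc 2D with all 8 libraries on a common median-ratio scale. Oct4 loss, infection and sequencer cannot be told apart in this comparison. On that scale Acta2 was at 0 CPM at Tc 2D and at 0.262 and 3.15 in the controls, and Tagln at 1.45 against 2.62 and 6.34. Myl9 was at 0.152 against 1.66 and 2.17, and Cnn1 at 0.267 against 2.45 and 2.82. Against the mean of these controls 5 genes were below the limit: Cnn1 (-1.52), Acta2 (-1.44), Myl9 (-1.34), Tagln (-1.16) and Vcl (-1.12). Of all 13542 genes tested this way, 22% were below the limit and 24.2% above. Tpm1 was above it (1.30), Cnn2 was at -0.29, and Tpm2 changed sign to 0.17.

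The choice of control library mattered for Acta2, Tagln and Actn1. Against control replicate 1 alone, Acta2 differed by -0.34 and Tagln by -0.56, whereas against replicate 2 alone they differed by -2.05 and -1.58. Both values against replicate 1 are inside the limit. For Acta2, at 0.262 CPM in that control and 0 at Tc 2D, -0.34 is the lowest value the pseudocount allows. That comparison therefore could not pass the limit and does not show whether Acta2 was lower. Myl9 (-1.21 and -1.46) and Cnn1 (-1.44 and -1.59) were below it against either. Of all genes, 22.1% were below and 24.4% above against replicate 1, and 22.4% and 24.8% against replicate 2. Actn1, at 218 CPM at Tc 2D and 329 and 316 in the controls on the common scale, was at -0.59 against replicate 1, -0.54 against replicate 2 and -0.56 against their mean, unlike the 0.01 against WT. Tpm1 was above it against either (1.33 and 1.26), with 149 CPM at Tc 2D and 58.6 and 61.4 in the controls on the common scale.

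Of the 8 fibroblast markers above 1 CPM in WT, 4 were above the limit at Tc 2D (Vim, Fbn1, Pdgfra and Col5a2) and 2 below (Col1a2 and Col1a1), beside 23.9% and 25.8% of all genes. Dcn, Lum and Postn had 0 reads, Col1a1 was at 1.34 CPM against 4.2 in WT and Col1a2 at 0.352 against 2.82. Pdgfrb, a growth factor receptor and 1 of the 5 markers at or below 1 CPM in WT, was at 25.1 CPM against 0.715. These are differences from WT of the other line. In the ZHBTc4 control shRNA libraries, without rescaling, Vim was at 217 and 163 CPM against 120.5 at Tc 2D. Fbn1 was at 12.1 and 11.2 there against 7.58, and Col5a2 at 3.64 and 3.87 against 3.77. Pdgfra was at 4.15 and 3.91 against 6.6, and Pdgfrb at 11.9 and 9.81 against 25.1. Col1a1 was at 5.67 and 6.24 in these controls, and Col1a2 at 0.738 and 2.24. The part of fibroblasts in the low Acta2 and Tagln at Tc 2D was not tested.

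The knockdown of linc1253 was the comparison with replicates, 2 libraries against 2, and no source states that they came from separate cultures. The p-values then measure only the spread between these samples. On log2-transformed CPM (plus 1), limma with a mean-variance trend and Benjamini-Hochberg adjustment called 0 of the 10 genes in either direction, beside 0% of 13407 genes higher and 0% lower at an adjusted p under 0.05. At an unadjusted p under 0.05 it called 0 of the 10, beside 3.7% of all genes higher and 3.75% lower. The quasi-likelihood test of edgeR on the recovered reads also called 0 genes, and DESeq2 called 23 higher and 27 lower, of which 0 were among the 10. By a different rule the paper did call genes changed by this knockdown. That rule combined p-values of the edgeR exact test and a log2-median-ratio test. It required a combined p under 0.05, with no adjustment stated, and a minimum log2 ratio.

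Acta2 was at 0.277 and 3.31 CPM with control shRNA and at 0.180 and 17.7 with linc1253 shRNA. Its fitted log2-fold-change was 1.00 (SE 1.24, limma adjusted p = 0.882). Tagln was at 2.77 and 6.67 CPM with control shRNA and at 2.83 and 17.1 with linc1253 shRNA, for 0.63 (SE 0.707, limma adjusted p = 0.869). For both genes the groups overlapped, and the spread within a group exceeded the difference between groups.

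Within each group, replicate 2 stood above replicate 1 for 8 of the 10 genes, beside 35.6% of all genes. Both replicate 2 libraries lay above both replicate 1 libraries for 6 of the 10, beside 24.9% of all genes. For Acta2 replicate 2 was 12-fold higher than replicate 1 with control shRNA and 98.2-fold higher with linc1253 shRNA. As differences of log2 of CPM plus 1 these are 1.76 and 3.99, beside 4.03 for OHT 4D minus WT. As ratios of CPM, the linc1253 replicates differed 98.2-fold and OHT 4D and WT 19-fold, with 7 reads in linc1253 replicate 1. For Tagln the ratios of replicate 2 to replicate 1 were 2.41 (control shRNA) and 6.02 (linc1253 shRNA). Without linc1253 replicate 1, which leaves 1 library in that group, the fitted log2-fold-change was 3.00 for Acta2 and 1.75 for Tagln. Without linc1253 replicate 2 the values were -0.99 and -0.49.

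Fibroblast markers differed between the same replicates. Of 11 that passed the filter there, 6 had replicate 2 above replicate 1 in both groups and 4 below (Vim, Thy1, Pdgfrb and Fbn1), beside 35.6% and 39.2% of all genes. Col1a2 was at 0.738 and 2.24 CPM in the controls and at 0.876 and 8.77 with linc1253 shRNA, and Postn at 0.0461 and 0.344 and at 0.0258 and 1.89. The summed level of the 16 markers, most of it from Vim and Thy1, was 290 and 230 CPM in the controls and 280 and 261 with linc1253 shRNA, and Fap had 0 reads in each. Thbs1 was at 2.21 and 8.0 CPM and at 1.98 and 30.7. Smooth muscle markers were ordered the other way, with replicate 2 below replicate 1 in both groups for 5 of the 5 that passed the filter, beside 39.2% of all genes. Des was at 32.8 and 26.5 CPM with control shRNA and at 25.4 and 18.0 with linc1253 shRNA. The part of any of these cell types in the spread of Acta2 and Tagln was not tested.

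The 3 genes whose linc1253 libraries both lay below both controls were Cnn1, Cnn2 and Actn1, and 0 lay above, beside 19.2% of all genes below and 18.8% above. Actn1 was at 347 and 333 CPM with control shRNA and at 304 and 287 with linc1253 shRNA, a log2-fold-change of -0.20 (SE 0.0862, limma adjusted p = 0.669). Cnn1 was at 2.58 and 2.97 against 1.75 and 2.10 CPM, for -0.37 (SE 0.160, limma adjusted p = 0.680). Cnn2 was at 24.86 and 24.99 against 20.7 and 22.3 CPM, for -0.21 (SE 0.108, limma adjusted p = 0.720). None of these passed the threshold in this fit, which has no term for the replicate number. Tpm1 (-0.03), Tpm2 (-0.15), Tpm4 (-0.03), Vcl (-0.04) and Myl9 (0.19) had SEs between 0.0983 and 0.211.

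In the gene lists described above, limma called 0 genes after linc1253 knockdown at an adjusted p under 0.05. Srf was at -0.06, Mkl1 at 0.01, Actb at 0.19 and Actg1 at -0.02. Thbs1 was at 0.86 (SE 1.06), with the same unequal replicates as Acta2.

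Pontin ChIP gave a readout of these genes other than their mRNA level. The window ran from 2.5 kb before to 500 b after the annotated start and held 36 to 121 Pontin reads and 13 to 37 GFP reads per promoter. The log2 ratio of Pontin over GFP, scaled by library size, had a median of 0.60 over the 10 genes, against 0.34 over 21178 promoters with reads in both libraries and 0.45 over those of expressed genes. Of the 10, 8 were above the median of all promoters and 3 above its upper quartile of 0.76. With 1 library per antibody there is no replicate check.

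The highest ratio was that of Cnn1, with 78 Pontin and 13 GFP reads (1.34, 95% counting interval 0.48 to 2.31). Myl9 had 88 and 18 reads (1.04, 0.30 to 1.86) and Cnn2 100 and 24 (0.81, 0.16 to 1.52). The intervals of Myl9 and Cnn2 reach below the median of all promoters, and only that of Cnn1 does not. Acta2, the gene with the largest change after OHT, had the lowest ratio, with 36 and 20 reads (-0.40, -1.22 to 0.47). The ChIP used ZHBTc4 cells, a line where Acta2 had 0.277 and 3.31 CPM with control shRNA. The change of Acta2 after OHT was measured in the other line. Tagln with 72 and 24 reads was at the median of all promoters (0.34). Tpm1 was at 0.52, Tpm2 at 0.46, Tpm4 at 0.42, and Actn1 and Vcl at 0.68. Mates of a pair were counted as separate reads, so these intervals are too narrow. Within 1 kb either side of the start the ratio was 1.52 for Tpm4, 1.13 for Tagln and 0.12 for Myl9, so single ratios depended on the window.

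**Figure D5:**
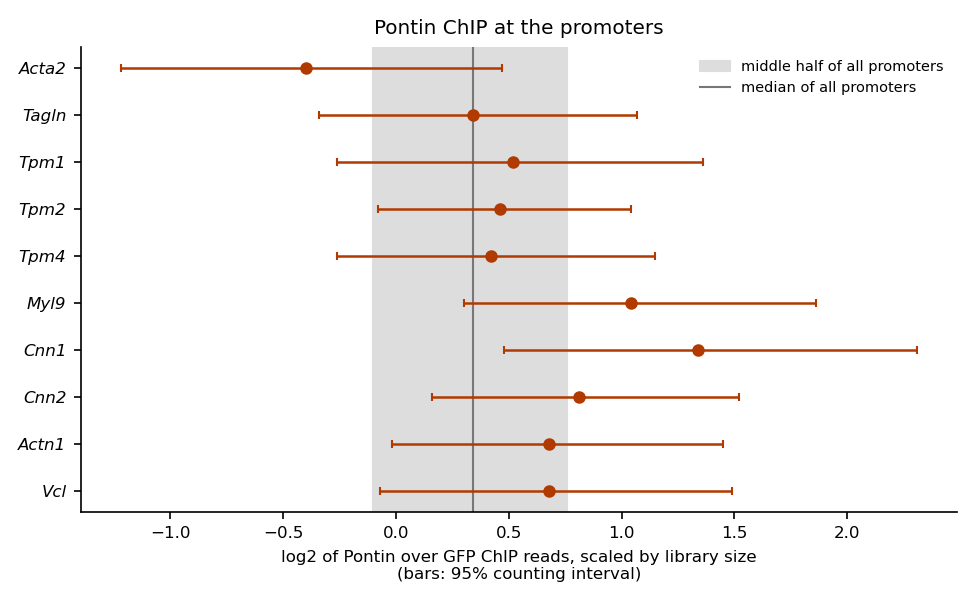
Log2 of Pontin over GFP ChIP reads at the promoter of each gene, with 95% counting intervals as bars. The grey band spans the quartiles of all promoters (-0.10 to 0.76) and the grey line is their median (0.34). The interval of Cnn1 alone lies wholly above that median, and Acta2 is the lowest at -0.40.

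Finally, genes with a profile like that of the 10 were sought over the 8 libraries, by Pearson's correlation with the mean standardized level of the 10 genes on the common scale. Among 10454 genes the most alike were Sdhaf2 (0.971), Ppap2a (0.963), Fam122a (0.963), Ubl7 (0.960) and Timp1 (0.958). Timp1, an inhibitor of matrix metalloproteases, had 27.8 CPM in WT, 33.3 (day 3) and 45.6 (day 4) after OHT, and 8.78 after Tc. With each of the 10 set against the mean profile of the other 9, the correlation was highest for Myl9 (0.961), Tagln (0.938) and Cnn1 (0.934), and was negative for Actn1 (-0.508) and Vcl (-0.583). These correlations describe 8 libraries of 2 lines, of which 4 were from lentivirus-infected cells and share a table and, per the paper, a sequencer model.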

How the data were processed

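The authors sequenced poly(A) mRNA of 8 libraries and 2 ChIP libraries and deposited gene values as CPM. Per the study's methods, reads were aligned to NCBIM37 with TopHat, counted with HTSeq and scaled by TMM in edgeR. The OHT and Tc libraries and the shRNA libraries came in 2 tables, and whether these were scaled together is not given in the sources used here, so differences between them were computed only after median-ratio rescaling. Each deposited CPM was a whole number of reads within 0.01 read for 100% of values, and these reads gave the counting intervals. The deposited ChIP files give 1 line per aligned read with its mapping score, and the reads were counted here. Symbols were matched for 22337 of 22713 IDs.

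Genes above 1 CPM in at least 1 library of a table were kept. For 1 library per group, log2 of CPM plus 1 was compared with a limit of 0.58, with exact (Clopper-Pearson) 95% intervals. A count of 0 allows 3 reads. For linc1253, limma 3.58.1 with trend, edgeR 4.0.16 and DESeq2 1.42.0 (recovered reads) were run in R 4.3.3, and the scripts were tested on simulated data first. The rest used Python 3.11.15 and scipy 1.17.1. Genes named from lists were up to 4 per list with the largest change among those with a mean CPM of at least 5, plus Srf, Mkl1, Myocd, Actb and Actg1. Other list genes named, such as cell type markers and relatives of the 10 (Actn4, Tpm3, Tagln2, Cnn3), were chosen after their values were seen. The 10 genes, the lists and the tests were chosen with earlier results of these data known. Alternatives were other pseudocounts, filters, scalings, limits, controls, tools, ChIP windows and leaving out each library, and those with a single control shRNA library or a less strict CArG box were added after seeing the data. Myl12a and Tfap2a were not analysed here. linc1253 itself was not analysed here, and 1 of the gene lists is not reported here.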

Additional observations from a re-analysis of the deposited data

Results flagged for a closer look

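Vcl was the gene of the 10 whose counting intervals excluded no change at both times after OHT and in opposite directions, with a log2-fold-change of 0.20 on day 3 and -0.53 on day 4. The difference between the times was not tested, since there was 1 library per time. The value at neither time was past the limit of 0.58, and 38.6% of the 50-base windows of Vcl occur in Ap3m1.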

How the results depend on the processing

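The counts at OHT 3D and OHT 4D kept within 1.5 times under every alternative tried. Between OHT 3D and OHT 4D the 5 higher genes became 1 with a pseudocount of 3, 3 with median-ratio rescaling and 0 past a limit of 1, where the 1 lower gene became 0. With the control shRNA libraries as the control of Tc 2D, 1 gene was higher in place of 0, with both or either of them. Tpm2 at Tc 2D then became 0.17, or 0.34 and 0.02 with control replicate 1 or 2 alone. The median ChIP ratio of 0.60 became 0.26 when scaled by the median ratio, on which all promoters have a median of 0.00 by construction.

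The replicate numbers of the shRNA libraries pair the samples by number only, and the deviations of same-numbered libraries correlated at 0.673. With a block for the replicate number, limma called 2 of the 10 genes higher (Acta2, adjusted p = 0.0254, and Tagln, adjusted p = 0.0238) and 1 lower (Actn1, adjusted p = 0.0162), among 933 higher and 1027 lower genes in all. Leaving out each library in turn gave 0 to 2 genes higher and 0 lower, where a lone library is assumed to vary like the other group. Signs turned in single genes: Vcl to 0.05 without control replicate 1, Tpm2 to 0.01 and Tpm4 to 0.02 without control replicate 2, Tpm1 to 0.10 and Tpm4 to 0.03 without linc1253 replicate 1, and Acta2 to -0.99, Tagln to -0.49, Myl9 to -0.05 and Vcl to 0.06 without linc1253 replicate 2. Of 512 recomputed values, 383 of single genes or promoter matches and 72 counts or medians kept their call or stayed close. The highest or lowest values on the other side were 1.75 for Tagln, 0.42 for Myl9 and -0.13 for Vcl without linc1253 replicate 1, -0.17 for Tpm1 and -0.10 for Tpm4 without linc1253 replicate 2, and -0.30 for Tpm2 without control replicate 1. The cause of these changes was not tested.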

Other observations

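Keratins, which form the intermediate filaments of epithelia, were higher in the same libraries as the contractile genes after OHT, but also at Tc 2D, where Acta2 and Tagln were low. Krt8 had 19.9 CPM in WT, 65.1 (day 3) and 155 (day 4) after OHT, and 133 after Tc, and Krt18 had 17.7, 44.2, 110 and 157 in the same order. Both are listed as trophectoderm markers, and 3 of the 8 tested (Cdx2, Hand1 and Gata3) were at or below 1 CPM in WT and passed the filter only through other libraries. Of the other 5, 2 were above the limit and 1 below on day 3, beside 6.01% and 5.88% of all genes. The counts were 3 and 0 on day 4, beside 6.48% and 8.89%, and 4 and 0 after Tc, beside 23.9% and 25.8%. Hand1, a trophoblast transcription factor, was at 0.268 CPM in WT, 3.08 and 5.34 after OHT and 61.8 at Tc 2D.

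Of 8 primitive endoderm markers that passed the filter in the shRNA libraries, 6 had replicate 2 above replicate 1 in both groups and 0 below, beside 35.6% and 39.2% of all genes. Gata6, a transcription factor of that lineage, was at 0.415 and 0.946 CPM with control shRNA and at 0.438 and 2.32 with linc1253 shRNA, and Gata4 at 0.877 and 1.76 and at 0.979 and 4.78.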
